A study of Mus musculus with 6 samples.

Results

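The genes described here encode the proteins that fold, cross-link, inspect and dispose of new polypeptides in the endoplasmic reticulum (ER). They were taken from a list of 42 gene symbols, and 40 of the 42 were measured among the 18194 genes on the array. Membership rests on the symbol and on no measured value, but the list was chosen with earlier results of these data known. A gene counted as measured where at least 1 probe set was annotated to that gene alone, and where there were several, the brightest on average over the 6 arrays was kept. The 40 genes had 84 such probe sets, and 28 genes had more than 1. Fkbp10 and Sec61g had no probe set of their own and were not analysed here. The cells were 393P, a mass population grown from primary lung tumours of mice carrying the alleles p53R172H∆g/+ and K-rasLA1/+, so both groups share those mutations. One group of 3 arrays came from 393P with a control vector (393P-scr) and the other group of 3 from 393P with a hairpin construct (shRNA) directed at MKK4 (393P-shZ). The labels speak of triplicate cultures, and each group traces to 1 treated population, so every p-value below refers to variation between cultures only. The labels give both retroviral infection and Lipofectamine transfection as the route of delivery, and no time after it. The question put to the arrays is how depletion of MKK4, the kinase encoded by Map2k4 that switches on JNK and p38, alters the transcripts of the tumour cells.

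Secreted and membrane proteins enter the ER unfolded through the Sec61 channel and receive N-glycans from the oligosaccharyltransferase. BiP (Hspa5) and its co-chaperones hold them in solution, calnexin and calreticulin retain the glycosylated ones, protein disulfide isomerases form and reshuffle their disulfide bonds, and chains that fail are carried back to the cytosol and degraded by the proteasome, a route called ER-associated degradation (ERAD). When unfolded chains accumulate, the sensors IRE1 (Ern1), PERK (Eif2ak3) and ATF6 start the unfolded protein response (UPR), whose transcription factors ATF6 and XBP1 induce many of these genes together. A common DNA site for that induction is the ER stress response element (ERSE), in which the letters CCAAT, where the factor NF-Y binds, stand 9 bases before CCACG, where ATF6 binds.

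Promoters are shown because the list is known for this element, and the genes that hold it include both genes lower with the shRNA and genes that were not called. RefSeq promoter windows (mouse build GRCm38.p6, 250 bases before to 50 after the start site) were found for 34 of the 40 measured genes. An exact ERSE, searched on both strands, stood in the windows of 10 of the 34 genes (29.4%). In the whole table it stood in 37 of 27025 genes (0.137%) and in 0.119% of the 32851 windows. The 250 bases before the start are printed 5′ to 3′ in the direction of transcription for 4 genes, with the bases that match the ERSE in capitals. Hspa5 (chr2:34771840-34772089, plus strand) was not called in the comparison of the groups, Hsp90b1 (chr10:86705445-86705694, minus strand) and Pdia6 (chr12:17266339-17266588, plus strand) were lower with the shRNA, and Ero1a (chr14:45318573-45318822, minus strand) was higher and has no exact match.

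Hspa5: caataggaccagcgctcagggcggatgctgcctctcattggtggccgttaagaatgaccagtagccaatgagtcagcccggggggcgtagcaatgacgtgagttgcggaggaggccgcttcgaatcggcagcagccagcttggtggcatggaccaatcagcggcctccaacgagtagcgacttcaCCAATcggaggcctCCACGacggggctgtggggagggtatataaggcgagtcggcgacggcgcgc
Hsp90b1: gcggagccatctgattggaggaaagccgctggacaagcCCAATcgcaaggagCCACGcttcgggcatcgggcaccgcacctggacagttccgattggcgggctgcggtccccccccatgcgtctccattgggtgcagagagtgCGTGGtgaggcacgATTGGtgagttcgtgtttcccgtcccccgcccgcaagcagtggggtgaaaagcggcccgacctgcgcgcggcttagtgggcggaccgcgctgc
Pdia6: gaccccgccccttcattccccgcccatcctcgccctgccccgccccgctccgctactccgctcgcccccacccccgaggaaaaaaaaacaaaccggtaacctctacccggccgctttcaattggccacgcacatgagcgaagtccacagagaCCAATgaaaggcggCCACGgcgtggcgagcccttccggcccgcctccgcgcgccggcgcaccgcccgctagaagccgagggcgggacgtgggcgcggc
Ero1a: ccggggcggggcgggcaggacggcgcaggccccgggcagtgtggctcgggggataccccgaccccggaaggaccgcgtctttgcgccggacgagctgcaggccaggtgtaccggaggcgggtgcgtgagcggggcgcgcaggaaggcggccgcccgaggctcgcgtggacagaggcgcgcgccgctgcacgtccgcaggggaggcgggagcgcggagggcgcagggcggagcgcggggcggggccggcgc

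Hsp90b1 held the element at 2 places, once in each orientation, at 212 and at 107 bases before the start, counted at the element's farther edge. In Hspa5 the element began 65 bases before the start and in Pdia6 98 bases before it. The exact elements of the other 7 genes follow, each read in the orientation in which CCAAT comes first, with CCAAT and CCACG in capitals. Calr was lower with the shRNA and the other 6 were not called.

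Calr: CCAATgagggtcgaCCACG
Canx: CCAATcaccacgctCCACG
Creld2: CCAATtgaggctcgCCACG
Derl3: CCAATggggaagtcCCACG
Dnajc3: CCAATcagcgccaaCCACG
Ero1lb: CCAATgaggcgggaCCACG
Syvn1: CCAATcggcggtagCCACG

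Windows were found for all 7 genes lower with the shRNA and for 4 of the 6 that were higher, and none of the exact elements lay in a window of those 4. A looser search, added after the values were known, allowed 1 mismatch in the 10 fixed letters and found 6 more genes with no exact element, against 1.39% of all windows. Those of Pdia3 and Pdia4, which were lower, and of Derl2 and Sel1l, which were higher, are shown for their likeness, with matching letters in capitals.

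Pdia3: CCAATcggcggctgCCACa
Pdia4: CCAATcacgggctgCCACt
Derl2: CCAATccctgccggCCACa
Sel1l: CCAATtagctggggCCAtG

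Positions are counted from 1 at the first C of CCAAT, the element's letter stands first and the window's letter last. The substitutions were G19A in Pdia3, G19T in Pdia4, G19A in Derl2 and C18T in Sel1l, so Pdia3, which was lower, and Derl2, which was higher, carried the same mismatch. Fkbp2 (T5G) and Selk (G19C) had the other counted elements with 1 mismatch and were not called. The shorter ERSE-II, ATTGG, 1 base, CCACG, stood in the window of Dnajb11 alone among the 34, against 0.0444% of all genes in the table. The XBP1 core TGACGTGG stood in the windows of Txndc5 and Txndc11, against 0.714% of all genes in the table. A match describes letters in a window and does not show binding.

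**Figure D1:**
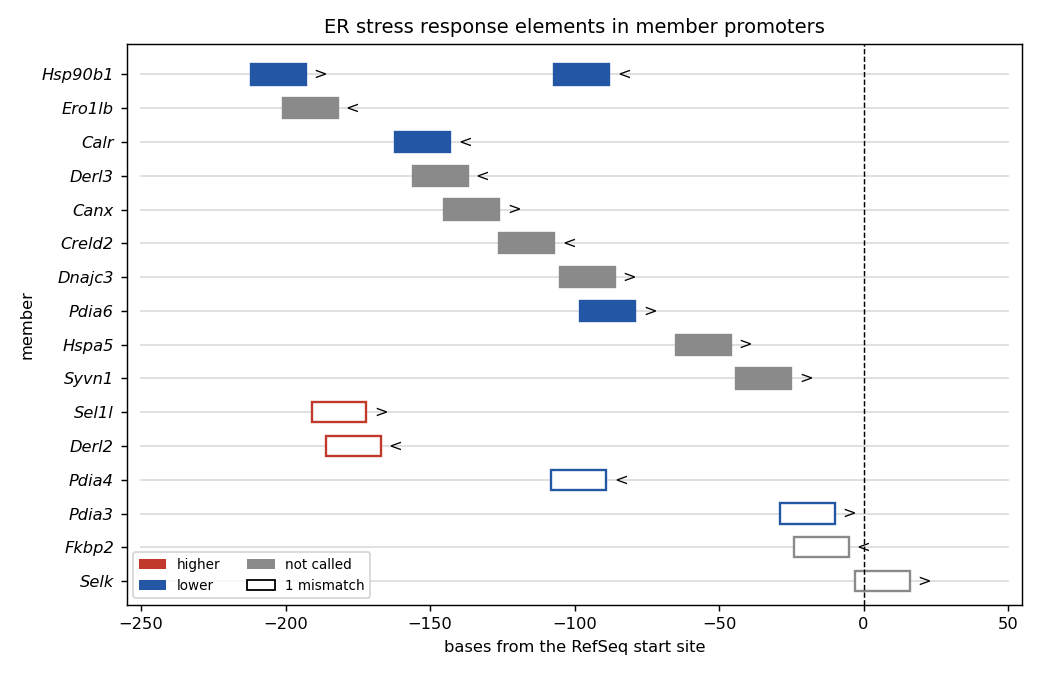
Position of each ERSE within the promoter window of 16 genes, in bases from the RefSeq start site (x axis); filled boxes are exact elements, open boxes have 1 mismatch, and the mark beside each box points in the element's reading direction relative to the gene. Exact elements appear in 3 genes that were lower (blue) and 7 that were not called (grey). They appear in none of the 4 higher genes (red) that have a window, and the other 2 higher genes could not be searched. Elements with 1 mismatch on chromosome 18, where Ppic and Sil1 lie, were left out.

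The targeted transcript was low in every shRNA culture. Map2k4 measured 700.34, 638.24 and 597.42 intensity units on the control arrays and 240.12, 294.90 and 287.42 on the shRNA arrays. The groups did not overlap, and the log2 change was -1.21 (SE 0.079, limma adjusted p 0.000126). An exact two-sided permutation test of the 6 arrays gave p = 0.1, the smallest that 20 regroupings allow. Epithelial markers were bright, with a summed intensity over 7 genes of 47200 to 47700 in control and 46600 to 47600 in shRNA arrays. Of the 7, Epcam (log2 change -0.35), Cdh1 (-0.14) and Cldn7 (-0.13) were lower and Krt19 (0.23) was higher; the part of these changes in the results below was not tested. Of 9 fibroblast, 8 leukocyte and 7 endothelial markers, 4 in each list lay within the level of the bacterial control trpnX, at most 39.47 units, and none of these 3 lists had a called gene. Their sums were 533 to 584, 996 to 1070 and 572 to 716 units in control arrays, and 506 to 594, 910 to 1120 and 518 to 677 in shRNA arrays. Csf1r was the brightest leukocyte marker, with group means of 771 units in control and 725 in shRNA arrays. Kdr was the brightest endothelial marker, at 394 and 345 units.

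Of the 40 genes, 6 were higher and 7 lower with MKK4 shRNA at a limma adjusted p under 0.05, the threshold for a call, and 27 were not called. RNA came from whole cultures, so fewer cells with a transcript and less of it per cell cannot be told apart. The called share was 32.5%. Over all genes it was 11.8%, with 6.39% higher and 5.39% lower, and over the brighter 9097 genes, to which 39 of the 40 belong, it was 20.8%. The median log2 change of the 40 was 0.006, beside -0.007 for all genes, and 22 of the 40 had a positive value. On the kept probe sets 12 of the 13 called genes changed by less than 1.5-fold. The exception was Ppic, and Ero1a passed 1.5-fold on another of its probe sets. Higher were Ppic, Ero1a, Derl2, Sel1l, Derl1 and Txndc5, and lower were Pdia3, Pdia6, Calr, Pdia4, Hsp90b1, Edem2 and Sec61b. The groups did not overlap in 16 of the 40 genes, beside 26% of all genes. The 16 were the 13 called genes with Dnajb11, Creld2 and P4hb.

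**Figure D2:**
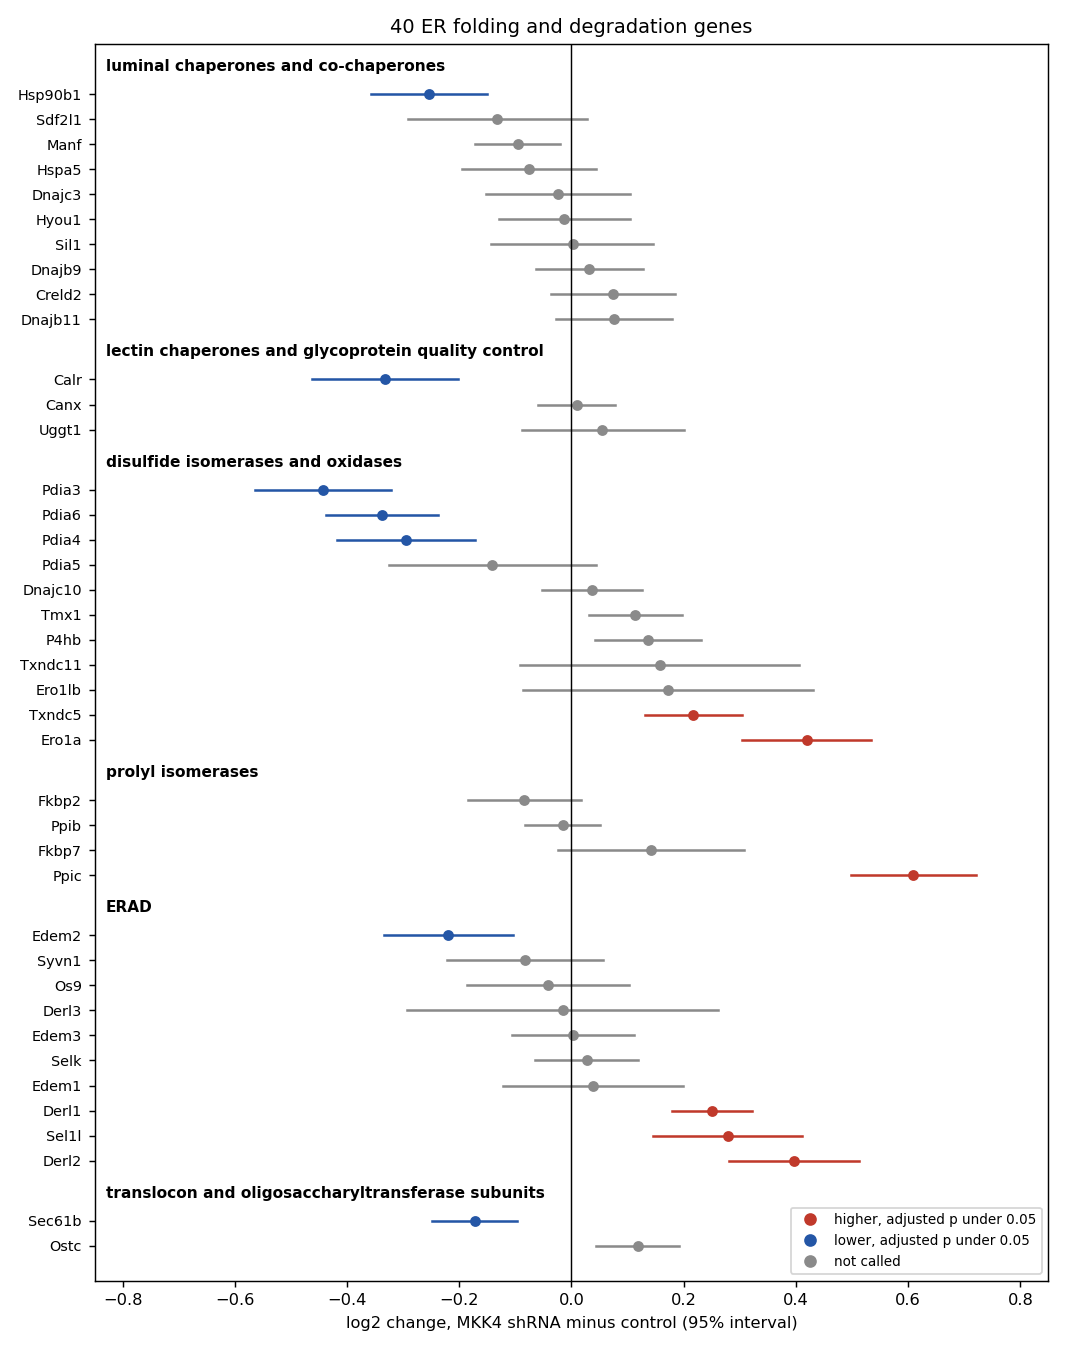
Log2 change (x axis, MKK4 shRNA minus control, n = 3 arrays each) of the 40 measured genes, grouped by role, with points for the estimate and bars for its 95% interval. Red genes were higher and blue genes lower at an adjusted p under 0.05; every role group except the prolyl isomerases includes a blue gene, and red genes sit among the disulfide enzymes, the prolyl isomerases and ERAD.

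Among the luminal chaperones and co-chaperones 1 of 10 was called (10%), close to the 11.8% of all genes. Their log2 changes ran from -0.25 to 0.08. Hsp90b1 encodes GRP94, the ER member of the HSP90 family, which folds integrins and Toll-like receptors among others. It measured 3568.22, 3422.49 and 3157.30 units in control cultures and 2862.11, 2867.65 and 2834.12 in shRNA cultures. The shRNA values lay close together and below the lowest control. The log2 change was -0.25 (SE 0.0449, limma adjusted p 0.00939), a fall by 16.2%, and the second Hsp90b1 probe set gave -0.26. The adjusted p became 0.0555 without shRNA replicate 2, 0.053 without shRNA replicate 3 and 0.0644 with no trend in the prior variance. Hspa5 encodes BiP, the HSP70 chaperone that also holds the UPR sensors inactive. The control mean was 3782 ± 225 units and the shRNA mean 3612 ± 203 (SD, n = 3). The change of -0.08 had a 95% interval of -0.20 to 0.04 and was not called (limma adjusted p 0.45). Its other probe sets gave -0.10, with groups that did not overlap and a 95% interval of -0.19 to -0.02, and -0.08, with an interval of -0.39 to 0.22.

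The partners of BiP were not called either. Hyou1, a nucleotide exchange factor of the HSP110 type, gave a log2 change of -0.01 (limma adjusted p 0.92) on its kept probe set. A dimmer one, at 225 and 257 units, gave 0.165 with groups that did not overlap and a 95% interval of -0.006 to 0.336. The dimmest gave 0.145 with overlapping groups. Sil1, the other exchange factor listed, gave 0.00. Among the J-domain proteins, which stimulate the ATPase of BiP, Dnajb9 gave 0.03 and Dnajb11 0.08, the latter with groups that did not overlap and an adjusted p of 0.375. Dnajc3, a co-chaperone also known as P58IPK, gave discordant probe sets. The one kept averaged 495 ± 6.0 units in control and 494 ± 19.4 in shRNA cultures (SD, n = 3), a difference of -0.02 on the log2 scale. Another of similar signal averaged 446 ± 16.5 and 365 ± 21.0 units, a difference of -0.29. A dim one, at 79.1 and 61.8 units, gave -0.30 with groups that did not overlap. The remaining dim ones overlapped and gave -0.04 and 0.05. Which of them reports the Dnajc3 transcript of these cells was not tested. Sdf2l1, which binds ER J-domain proteins, gave -0.13 (adjusted p 0.305). Manf, a secreted factor released when ER calcium falls, gave -0.10 with a 95% interval of -0.17 to -0.02 (adjusted p 0.113). Creld2, another secreted ER stress gene, gave 0.07 with groups that did not overlap (adjusted p 0.419).

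Of the lectin branch, calreticulin was lower and calnexin was not called. Calr encodes the soluble lectin that also buffers ER calcium. It measured 1981.35, 2016.11 and 2075.97 units in control cultures and 1669.60, 1661.86 and 1520.30 in shRNA cultures. No shRNA culture reached the lowest control. The log2 change was -0.33 (SE 0.056, limma adjusted p 0.00766), a fall by 20.6%, and its other probe sets gave -0.34 and -0.37. Canx encodes the membrane-bound lectin calnexin and was among the 2 brightest genes of the list. It measured 5062.59, 4743.46 and 5016.23 units against 5022.37, 5078.17 and 5039.74. The groups overlapped, and the change of 0.01 had a 95% interval of -0.06 to 0.08. On this probe set that leaves out a fall of the size seen for Calr. The other probe sets of Canx gave 0.08 and, on a dimmer one, -0.10. The interval of the dimmer one, -0.36 to 0.16, includes such a fall. The difference between Calr and Canx was not itself tested. Uggt1, the glucosyltransferase that returns misfolded glycoproteins to this cycle, gave 0.06 (adjusted p 0.675).

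The disulfide enzymes divided, with 2 higher, 3 lower and 6 of 11 not called (45.5% called, beside 11.8% of all genes). Pdia3 encodes ERp57, the isomerase that works on glycoproteins bound to calnexin or calreticulin and sits in the MHC class I loading complex. It measured 4439.13, 4151.12 and 4016.32 units in control cultures and 2872.62, 3168.24 and 3386.76 in shRNA cultures. All 3 shRNA cultures lay below every control, and the fall by 26.4% was the steepest of the list (log2 change -0.44, SE 0.0525, limma adjusted p 0.00167). A dim second probe set, at 53.3 and 40.8 units, gave -0.28. Pdia6 encodes P5, an isomerase that associates with BiP and has been reported to limit IRE1 activity. It measured 1511.05, 1564.55 and 1462.89 units in control cultures and 1095.39, 1262.35 and 1255.95 in shRNA cultures. The groups were well apart, with a log2 change of -0.34 (SE 0.0432, adjusted p 0.00231), and a dimmer probe set gave -0.22. Pdia4 encodes ERp72. It measured 588.11, 609.84 and 565.25 units against 439.75, 498.61 and 510.22, a log2 change of -0.30 (SE 0.0534, adjusted p 0.0103). Its other probe set, at 25.9 and 26.9 units, lay within the trpnX level. Averaged with it the change was -0.12 (adjusted p 0.541), and without shRNA replicate 2 the adjusted p was 0.0517.

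In the same group the oxidase Ero1a was higher. Ero1a passes electrons from reduced disulfide isomerases to oxygen and so makes the disulfide bonds that the isomerases hand on. It measured 844.24, 795.50 and 722.28 units in control cultures and 1025.49, 1078.39 and 1091.22 in shRNA cultures. The lowest shRNA culture stood above the highest control, and the log2 change was 0.42 (SE 0.05, limma adjusted p 0.00172), a rise by 33.7%. The probe sets differed in size but not in sign: the others gave 0.89 and 0.54, the former from 512 ± 25.2 to 975 ± 86.7 units (SD, n = 3). Its paralog Ero1lb, now named Ero1b, gave 0.17 with overlapping groups (adjusted p 0.42). Txndc5, a thioredoxin-domain isomerase also called ERp46, measured 1507.27, 1548.83 and 1564.15 units against 1785.14, 1804.70 and 1817.25. Both groups were tight and apart, with a log2 change of 0.22 (SE 0.0372, adjusted p 0.0082) and 0.21 on the other probe set. The adjusted p was 0.061 with no trend in the prior variance and 0.0523 after centring on chromosome medians.

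P4hb, protein disulfide isomerase itself, had positive values where Pdia3, Pdia4 and Pdia6 were lower. It measured 2372.38, 2374.31 and 2491.72 units in control cultures and 2584.33, 2874.75 and 2637.74 in shRNA cultures, so its groups did not overlap in the upward direction. The log2 change of 0.14 had a 95% interval of 0.04 to 0.23 and missed the threshold after adjustment (limma adjusted p 0.0774). The membrane-bound isomerase Tmx1 gave 0.11 (adjusted p 0.086), Txndc11 0.16 (0.447), Pdia5 -0.14 (0.35) and Dnajc10, a reductase that prepares ERAD substrates, 0.04 (0.649).

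**Figure D3:**
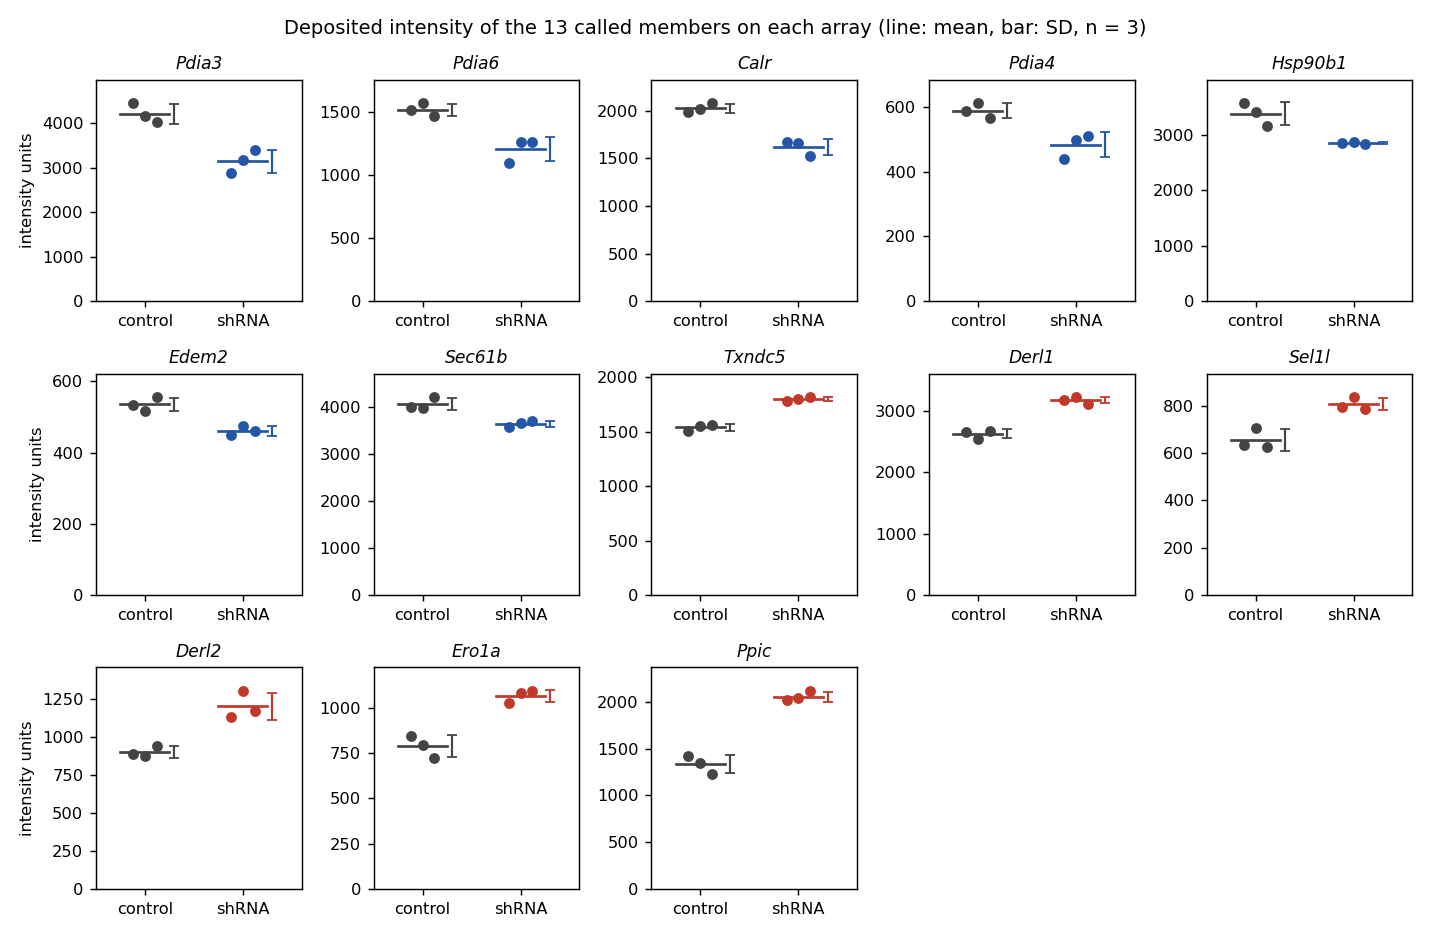
Deposited intensity (y axis, from 0) on each of the 3 control (grey) and 3 MKK4 shRNA (coloured) arrays for the 13 called genes, with a line for the mean and a bar for the SD (n = 3). Points are the arrays of a group in label order; in all 13 genes the groups do not overlap, and the lower genes (blue) and higher genes (red) shift by less than 1.5-fold except Ppic.

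Prolyl isomerases speed the slow turning of peptide bonds before proline. Ppic, which encodes cyclophilin C, showed the largest change of the 40 genes on the kept probe sets, though 1 of the other probe sets of Ero1a changed by more. It measured 1419.50, 1344.73 and 1233.02 units in control cultures and 2014.47, 2035.99 and 2114.14 in shRNA cultures. The groups were far apart relative to their spread, and the change was 1.53-fold (log2 0.61, SE 0.0477, limma adjusted p 0.000291). Ppib encodes cyclophilin B, a partner of collagen hydroxylases and of several ER chaperones, and was the other of the 2 brightest genes. It measured 5895.02, 5965.30 and 6007.45 units against 6064.58, 6005.07 and 5903.52. The groups overlapped, and the log2 change of -0.02 had a 95% interval of -0.08 to 0.05, which leaves out a rise of the size seen for Ppic. The FK506-binding isomerases Fkbp2 and Fkbp7 gave -0.08 and 0.14, neither called (adjusted p 0.3 and 0.286).

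ERAD had 3 genes higher and 1 lower of 10 (40% called, beside 11.8% of all genes). The 3 higher genes belong to the membrane complex through which substrates leave the ER: SEL1L holds the ubiquitin ligase HRD1 (Syvn1), and the derlins form part of the channel. Derl2 measured 888.42, 870.51 and 942.25 units in control cultures and 1128.63, 1300.41 and 1172.12 in shRNA cultures. The groups did not overlap, with a log2 change of 0.40 (SE 0.0502, limma adjusted p 0.0022), but its dimmer probe set overlapped and gave 0.14. Derl1 measured 2659.62, 2543.41 and 2679.19 units against 3178.28, 3223.27 and 3121.55. Its log2 change was 0.25 (SE 0.0308, adjusted p 0.00197), and all 3 other probe sets were further up, at 0.36 to 0.48. Sel1l measured 632.21, 706.99 and 623.66 units against 794.50, 835.52 and 787.38. Its groups did not overlap (log2 change 0.28, SE 0.0574, adjusted p 0.0179), and of its other probe sets 3 were positive, at 0.14 to 0.41, and 1 gave -0.05. The call of Sel1l was lost in 7 of 16 other settings, with an adjusted p of at most 0.0745, reached without shRNA replicate 2.

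The remaining ERAD genes included 1 that was lower. Edem2, which starts the mannose trimming that marks a glycoprotein for disposal, measured 533.85, 516.69 and 555.67 units in control cultures and 448.71, 476.30 and 461.21 in shRNA cultures. The groups did not overlap, and the log2 change was -0.22 (SE 0.0497, limma adjusted p 0.0265). This was the least secure call of the 13: it was made in 4 of 16 other settings, was lost whichever array was left out, with adjusted p from 0.0521 to 0.0928, and a dim second probe set gave 0.03. Its relatives Edem1 and Edem3 gave 0.04 and 0.00, and the lectin Os9 gave -0.04. The other Edem1 probe set, at 311 and 355 units, gave 0.17. Its groups did not overlap, and the 95% interval was 0.02 to 0.31. The ligase gene Syvn1 gave -0.08 (adjusted p 0.488) and -0.12 on its other probe set, both below 0 where its partner Sel1l was higher. Derl3, the third derlin, was dim at 102 ± 4.43 and 102 ± 15.0 units (SD, n = 3). Its 95% interval, -0.29 to 0.26, covers changes of the size seen for Derl1. Selk, now named Selenok, a selenoprotein bound to the derlins, gave 0.03.

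At the entry gate, Sec61b, the beta subunit of the Sec61 channel, was lower. It measured 3987.91, 3965.54 and 4200.94 units in control cultures and 3564.87, 3645.02 and 3691.30 in shRNA cultures. The groups did not overlap, and the fall by 11.3% (log2 change -0.17, SE 0.0327, limma adjusted p 0.0126) was the smallest change among the called genes. Its adjusted p was 0.0649 without shRNA replicate 2, 0.0522 without shRNA replicate 3 and 0.103 with no trend in the prior variance. Ostc, a subunit of the oligosaccharyltransferase that acts during translocation, averaged 1717 ± 40.2 units in control and 1877 ± 109 in shRNA cultures (SD, n = 3). Its log2 change of 0.12 just missed the threshold (adjusted p 0.0522).

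Genes without a call were not thereby shown to be equal. Their adjusted p ran from 0.0522 to 0.993 and their log2 changes from -0.14 to 0.17. For 21 of the 27, the 95% interval lay within 0.25 of 0 on the log2 scale, which is narrower than the changes of Pdia3, Pdia6, Calr, Ero1a, Derl2 and Ppic. Txndc11, Ero1lb and Derl3 had the widest intervals.

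**Figure D4:**
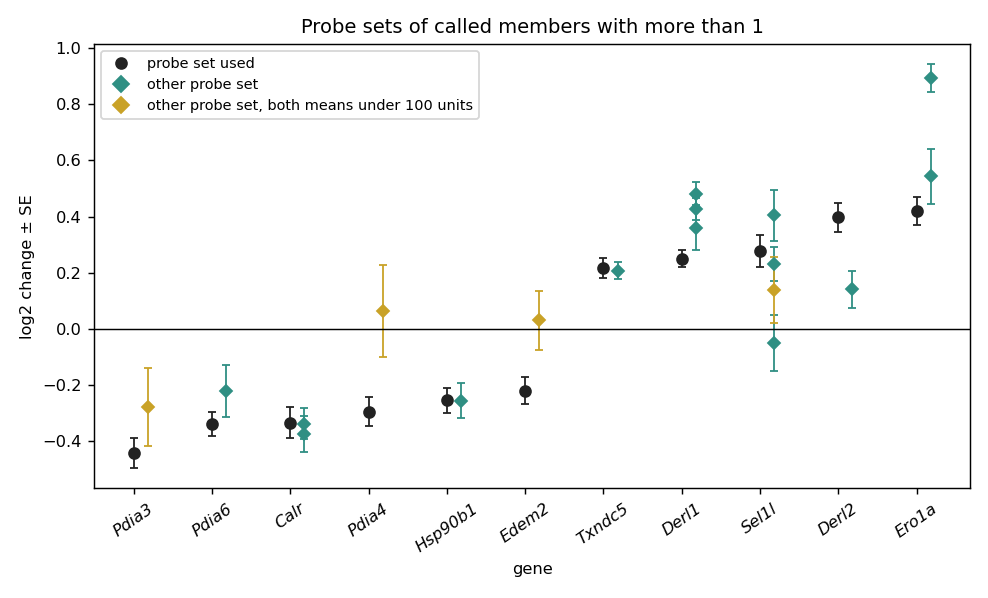
Log2 change (y axis, MKK4 shRNA minus control) with its SE for every probe set of the 11 called genes that have more than 1, the kept probe set in black. Calr, Hsp90b1, Pdia3, Pdia6, Txndc5, Derl1, Derl2 and Ero1a have the same sign on all their probe sets. Sel1l has 1 of 4 others below 0, and Pdia4 and Edem2 each have a dim one above 0.

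The calls were then set beside the promoter elements shown above. Of the 10 genes with an exact ERSE, 3 were lower and 7 were not called, with log2 changes from -0.34 to 0.17 and a median of -0.05. Of the 24 genes with a window and no exact ERSE, 4 were higher and 4 lower, with a median of 0.03. No test was made of this difference. Chromosomes were also compared, since a shift of a whole chromosome would move its genes together. The 13 called genes lay on 11 chromosomes, and the medians of chromosomes 1 to 19 and X over all genes ran from -0.07 on chromosome 2 to 0.06 on chromosome 11; chromosome Y, with 9 genes, and the mitochondrial genome, with 1, hold no member. Pdia3 and Edem2 lie on the former and Derl2 on the latter, and each of these 3 changes is larger than its chromosome's median. Centring on chromosome medians nonetheless ended the calls of Edem2 (log2 change -0.14, limma adjusted p 0.147) and Txndc5.

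The same fit was read for 4 neighbouring lists, whose called shares stand beside 11.8% of all genes and 20.8% of the brighter 9097 genes. Among 24 UPR sensors and transcription factors, 7 were higher and 3 lower (41.7% called, median log2 change 0.09). Ddit3 (CHOP), the factor tied to death under prolonged ER stress, rose by 0.81 on the log2 scale (limma adjusted p 0.000839), from a mean of 598 ± 66.7 to one of 1071 ± 37.8 units (SD, n = 3), with 0.32 on its other probe set. Ppp1r15a (GADD34), which directs dephosphorylation of the PERK target eIF2α, rose by 0.72 (adjusted p 0.00014), the stress factor Nupr1 by 0.70 (0.000858) and Herpud1, an ERAD adaptor, by 0.53 (0.00025). Ern1, the sensor IRE1, gave 0.98 on its kept probe set (adjusted p 0.000127), but of its 4 others the 3 above the trpnX level gave -0.14 to 0.20, and averaged over its probe sets it was not called (0.115). Lower were the PERK gene Eif2ak3, at -0.29 (0.00626), Xbp1, at -0.16 (0.0329), and Creb3, at -0.20 (0.0469). Xbp1 kept its call in 6 of 16 other settings and Creb3 in 4, while Eif2ak3 lost its call only when its probe sets, the others within the trpnX level, were averaged. Atf6, which encodes the factor that binds the ERSE, gave 0.07 (0.609) on its kept probe set, and its others, of 363 and 259 control units, gave 0.26 and 0.25 with groups that did not overlap; averaged over the 3 it was not called. Eif2ak3, Xbp1, Creb3, Atf6, and in the lists that follow Ufd1l, Vcp and Sec61a1, were chosen after their values were seen.

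Of 28 further ERAD genes, 6 were higher and 3 lower (32.1% called, median 0.04). Ube2g2, a ubiquitin-conjugating enzyme used by HRD1 and gp78, rose by 0.55 (limma adjusted p 0.00158) and March6, a membrane ubiquitin ligase gene now named Marchf6, by 0.30 (0.000773), though the other probe set of the latter gave 0.01. Erlin1, which recruits ligases to inositol trisphosphate receptors, rose by 0.44 (0.00105) on its kept probe set and gave 0.00 on another. Averaged over their probe sets neither March6 (0.177) nor Erlin1 (0.109) was called. Nploc4 rose by 0.33 (0.00341), as did Ufd1l by 0.29 (0.0119); their products are the cofactors of the extracting ATPase p97, whose own gene Vcp was lower at -0.17 (0.011). Ufd1l kept its call in 8 of 16 other settings and Vcp in 11. Fbxo2, a ligase subunit that reads high-mannose glycans in the cytosol, fell by 0.72 (0.000603), from 1113 ± 84.1 to 677 ± 43.3 units (SD, n = 3).

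Of 26 other ER folding genes, 6 were higher and 4 lower (38.5% called, median -0.01). The isomerase genes went both ways, with Fkbp11 at 0.39 (limma adjusted p 0.00322) and Fkbp9 at -0.30 (0.0064). Hspa13, an HSP70 relative, rose by 0.32 (0.0124) and Prdx4, a peroxiredoxin that oxidises disulfide isomerases, by 0.21 (0.0423). Erp44, which retains ERO1 in the early secretory pathway, fell by 0.19 (0.0165). The list of 36 translocon, signal peptidase and N-glycosylation genes had the fewest calls, 4 higher and 1 lower (13.9%, median 0.03). That share was close to the 11.8% of all genes and below the 20.8% of the brighter 9097 genes. Its called genes were Sec11c at 0.37 (0.0271), Dad1 at 0.27 (0.0096), Tusc3 at 0.21 (0.00697), Srp68 at 0.16 (0.0383) and Srp14 at -0.23 (0.00332). Sec11c gave -0.03 without probe sets liable to match several transcripts. Sec61a1, the pore subunit beside Sec61b, gave -0.11 (0.159), and its 5 other probe sets gave -0.26 to -0.05.

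**Figure D5:**
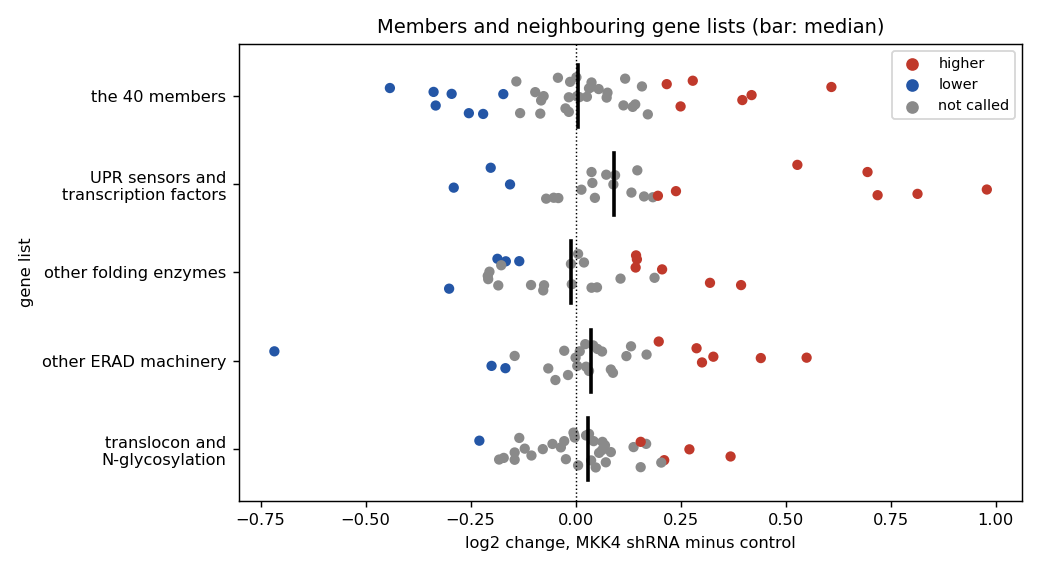
Log2 change (x axis, MKK4 shRNA minus control) of each gene in the 40 measured genes and in 4 neighbouring lists (rows), coloured by call, with a bar at the median of each list. The medians lie between -0.01 and 0.09, and the largest positive values are in the list of UPR sensors and transcription factors, led by Ern1 at 0.98.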

How the data were processed

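The labels' protocols describe biotinylated RNA from 6 cultures on Affymetrix arrays, which read 1 colour. Each probe set has 1 deposited intensity, not on a log scale; how the authors summarised, background-corrected or scaled them is not given in the sources used here. Array medians were 92 to 95.76 units, and the number of arrays limits the precision. Means and SDs are of the intensities as deposited. For the test, log2(intensity + 16) was quantile-normalized and fitted with limma 3.58.1 (R 4.3.3; lmFit, eBayes with trend), with Benjamini-Hochberg adjustment at 0.05 over 18194 genes; the pseudocount makes log2 changes of dim genes too small. The 64 control probe sets were left out. Probe sets were named through GEO's platform annotation.

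The genes, lists and tests were chosen with earlier results of these data known. Named were Map2k4, every called member, the 2 brightest members and up to 5 called genes of each neighbouring list by size. On simulated data for this comparison, with 18194 genes of which 200 were changed, 12% of changes of 0.25 on the log2 scale were recovered, 52% of 0.5, 84% of 1 and 100% of 2, and 1.59% of calls were false. The changed genes were drawn over all levels. In the data 2143 genes were called, and 39 of the 40 members lay above the median level. These rates therefore do not give the recovery or the error for the members. Alternatives were the values as deposited, median centring, pseudocounts of 1 and 64, a filter on dim genes, other rules for probe sets, no trend, the replicate block, chromosome centring and leaving out each array.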

Additional observations from a re-analysis of the deposited data

How the results depend on the processing

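Over the 16 alternative settings none of the 13 called genes changed sign, and Calr, Pdia3, Pdia6, Ero1a, Ppic, Derl1 and Derl2 were called in each one that tested them. The limma count of lower genes, 7, was 4 without the trend and 3 to 6 with 1 array left out, being 3 without shRNA replicate 2 and 4 without shRNA replicate 3; that of higher genes, 6, ran from 4 to 8. The count over all genes, 2143, became 1130 without the trend and 1158 to 1672 with 1 array left out, falling by over 1.5 times when replicate 2 or 3 of either group was dropped. Sel1l kept its call in 9 settings, Edem2 in 4, Hsp90b1 and Sec61b in 12, and Pdia4 and Txndc5 in 14; the cause was not tested. P4hb, Tmx1, Fkbp7 and Ostc passed in a setting, with adjusted p down to 0.0293, 0.0404, 0.0399 and 0.0428.

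The replicate block gave 1211 genes, with 5 members higher and 6 lower, Sel1l (adjusted p 0.0516) and Edem2 (0.0926) losing their calls. Arrays with the same label letter did not deviate together (r = -0.034, -0.008 and -0.114). Such values cannot show whether those arrays were handled together, so the block was kept as an alternative.

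No log2 change that turned sign passed the test with its new sign. With chromosome centring these were Hspa5 at 0.007, Hyou1 at 0.003, Creld2 at -0.001, Canx at -0.064 and Edem3 at -0.019. With all probe sets averaged they were Hyou1 at 0.099, Canx at -0.004 and Ero1lb at -0.083, and with only probe sets meant for 1 transcript Hyou1 at 0.165 and Sec11c at -0.033. Ppib gave 0.008 as deposited and 0.004 with medians centred. With 1 array left out the values ran from -0.055 to 0.03 for Hyou1, -0.068 to 0.013 for Dnajc3, -0.028 to 0.057 for Sil1, -0.015 to 0.025 for Canx, -0.027 to 0.074 for Edem1, -0.026 to 0.024 for Edem3 and -0.116 to 0.091 for Derl3; they reached -0.008 for Uggt1 and 0.004 for Ppib. Of the 20 genes named by rule from the neighbouring lists 10 kept their call in every setting; Ern1, Erlin1, March6, Fkbp11, Hspa13, Prdx4, Erp44, Sec11c, Dad1 and Srp68 lost it in at least 1. Of those named after their values were seen, Eif2ak3, Xbp1, Creb3, Ufd1l and Vcp each lost the call in at least 1 setting, with adjusted p up to 0.846, 0.137, 0.625, 0.129 and 0.125; Atf6 and Sec61a1 were called in none. Without shRNA replicate 3 the calls of Xbp1, Creb3, Ufd1l and Vcp were lost.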

Other observations

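An exact ERSE stood in the promoter windows of 37 genes of the RefSeq table, of which 20 were measured. The 10 that belong to none of the ER genes described above were not called (0 of 10 by limma, beside 11.8% of all genes). Control means of these 10 were 5.53 to 245 units, beside a median of 1030 for the 40 members. The part of signal level in the lack of calls was not tested. The 10 genes had a median log2 change of -0.06. They include Alg12, a mannosyltransferase of N-glycan assembly, which went from a mean of 205 to 192 units with a log2 change of -0.09 (limma adjusted p 0.571). Acnat2, at 9.47 and 22 units, and 4930402F11Rik, at 5.53 and 3.5, lay within the level of the trpnX control. The value of 0.60 for Acnat2 is no measurement of that transcript.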
